A study of Mus musculus with 18 samples.

Results

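Expression was examined for 10 genes through which p53 is known to promote cell death: Bax, Bbc3, Pmaip1, Perp, Fas, Tnfrsf10b, Pidd1, Apaf1, Aen and Ei24. They were chosen by symbol from the 33235 genes in the liver RNA-seq tables, and all 10 were found once on each diet and passed the filter on low values. Livers came from mice given GalNAc-Mdm2ASO, labelled as MDM2 knockdown, or GalNAc-conASO, labelled as wild type. An ASO is an antisense oligonucleotide that leads to degradation of the transcript it pairs with, and GalNAc is a sugar that carries it into hepatocytes through their asialoglycoprotein receptor. Mice in both ASO groups were fed either the HFHC or the CDAHFD diet, names that the labels do not spell out. The labels list 4 samples for each ASO on HFHC and 5 for each on CDAHFD. On HFHC, replicates 6 and 7 of the Mdm2 ASO held identical values in every gene and were counted once, which leaves 3 Mdm2 ASO libraries (6-7, 9 and 10) and 4 control ASO libraries (1, 2, 4 and 5). On CDAHFD, 5 Mdm2 ASO libraries (6 to 10) were set against 5 control ASO libraries (1 to 5). No group fed another diet was analysed here, and the sources used here do not give the dose, the length of treatment or the age of the mice.

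MDM2 attaches ubiquitin to p53 and so sends it to the proteasome, and less MDM2 lets p53 accumulate and bind its target genes. In the mitochondrial route to apoptosis, BH3-only proteins such as PUMA and NOXA block the anti-apoptotic BCL2 proteins, BAX then opens the outer mitochondrial membrane, and released cytochrome c assembles with APAF1 into the apoptosome that activates caspase 9. Death receptors at the cell surface start a parallel route through caspase 8, and PIDD1 builds the PIDDosome, which activates caspase 2. Hepatocytes are cells in which Mdm2 is needed to hold p53 in check.

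The promoters of these genes are shown because several of the genes are textbook binding targets of p53. RefSeq windows of GRCm38.p6, from 250 bases before to 50 after a gene start, were held for 7 of the 10 genes: Bax, Bbc3, Aen, Pidd1, Ei24, Apaf1 and Fas. Each was searched on both strands with the p53 half-site consensus, a palindromic motif of 10 bases of which a full site holds a pair. Capitals mark the best pair of half-sites, spacer left in lower case where it has one, in Bax (chr7:45467059-45467119, minus strand), Bbc3 (chr7:16309466-16309525, plus strand) and Aen (chr7:78895932-78895961, plus strand). In Ei24 (chr9:36797335-36797394, minus strand) they mark a single exact half-site, and Pidd1 (chr7:141444026-141444085, minus strand) is shown as the stretch just before the start, with none.
Bax: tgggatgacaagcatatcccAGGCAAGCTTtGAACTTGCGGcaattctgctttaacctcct
Bbc3: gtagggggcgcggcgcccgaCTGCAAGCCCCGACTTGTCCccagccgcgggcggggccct
Aen: aagccGGGCTTGTCCGGGCAAGGAGcttcc
Ei24: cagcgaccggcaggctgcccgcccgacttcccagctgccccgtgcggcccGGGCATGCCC
Pidd1: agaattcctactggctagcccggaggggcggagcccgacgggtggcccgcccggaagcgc

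The Bax pair starts at position -201 with 2 mismatches to the consensus over 20 bases and a spacer of 1 base. The Bbc3 pair starts at -97 and the Aen pair at 11, each with 3 mismatches and no spacer. An exact half-site was present in the windows of Bax, Aen and Ei24, and in 8.36% of all 32851 windows of this length. A pair with at most 3 mismatches and a spacer of at most 13 bases, limits set after the matches were seen, was present in Bax, Bbc3 and Aen and in 15.6% of all windows. No such pair was in the windows of Pidd1, Ei24, Apaf1 and Fas. The matches are letters in a window and were not measured as bound: of the genes shown, Bax and Aen were higher with the Mdm2 ASO on CDAHFD, and so was Pidd1, while Bbc3 and Ei24 did not pass the test on either diet.

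The transcript targeted by the ASO was lower in every treated library. Mdm2 averaged 362 ± 58.2 normalized counts with the Mdm2 ASO and 945 ± 25.6 with the control ASO on HFHC (SD, n = 3 and 4), which left 38.3% of the control level. On CDAHFD it averaged 647 ± 124 with the Mdm2 ASO and 1565 ± 87.7 with the control ASO (SD, n = 5 each), which left 41.3%. Cdkn1a, the p53 target that encodes the cell cycle inhibitor p21, was higher with the Mdm2 ASO on HFHC (log2 fold change 0.98, SE 0.18, limma adjusted p = 0.00256) and on CDAHFD (0.78, SE 0.17, limma adjusted p = 0.00873). The Trp53 transcript did not pass the test on HFHC (-0.12, limma adjusted p = 0.534) or on CDAHFD (-0.08, limma adjusted p = 0.568). Libraries held 17770748 to 18798144 reads in genes on HFHC and 22376178 to 31453055 on CDAHFD.

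Markers of several other cell types moved with the Mdm2 ASO, more of them on HFHC than on CDAHFD. All 10 leukocyte markers (Ptprc, Cd53, Laptm5 and others) were higher with the Mdm2 ASO on HFHC, their summed level ranging from 36214 to 42215 normalized counts with the Mdm2 ASO and from 4487 to 5930 with the control ASO. On CDAHFD 0 of the 10 passed in limma-trend, edgeR or DESeq2 and 0 had an unadjusted p under 0.05, with sums of 4407 to 9228 with the Mdm2 ASO and 5366 to 8463 with the control ASO. Of 10 cholangiocyte markers, 6 were lower on HFHC and 0 passed on CDAHFD in limma-trend, edgeR or DESeq2, where 4 were higher and 1 lower at an unadjusted p under 0.05. Of 10 markers of dividing cells, 7 were higher on HFHC and 5 lower on CDAHFD. Of 11 hepatocyte markers, all detected in every group, 0 passed on HFHC in limma-trend (1 lower at an unadjusted p under 0.05, 1 lower in edgeR, 1 higher and 2 lower in DESeq2). On CDAHFD 1 hepatocyte marker was lower and 0 were higher in limma-trend. There, 1 was higher and 1 lower in edgeR, and 3 were higher and 1 lower in DESeq2. At an unadjusted p under 0.05, 3 were higher and 2 lower. Red blood cell markers were higher in 7 of 7 on HFHC and in 0 of 6 tested on CDAHFD (limma-trend, edgeR and DESeq2, 1 at an unadjusted p under 0.05), stellate cell markers in 7 and 1 of 10, endothelial markers in 6 and 3 of 10, and Kupffer cell markers in 5 of 10 on HFHC. On CDAHFD 1 Kupffer cell marker was lower and 0 were higher in limma-trend and edgeR (1 higher in DESeq2 and at an unadjusted p under 0.05). Of 13 mitochondrially encoded transcripts, 10 were lower on HFHC and 1 was higher on CDAHFD. In bulk liver, fewer cells of a type and less RNA per cell cannot be told apart.

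With the Mdm2 ASO, 5 of the 10 genes passed the test on HFHC and 4 on CDAHFD, and the test of the difference between diets is given after the single genes. On HFHC, Pmaip1, Apaf1 and Pidd1 were higher and Perp and Fas lower, while Bax, Bbc3, Tnfrsf10b, Aen and Ei24 did not pass. Those 5 of 10 stand against 30.6% of all 17441 genes tested there, with 16.8% of all genes higher and 13.8% lower. On CDAHFD, Pidd1, Tnfrsf10b, Aen and Bax were higher and 0 of the 10 were lower in limma-trend, edgeR or DESeq2 (1, Perp, at an unadjusted p under 0.05 in limma-trend), against 13% of all 16803 genes tested, with 6.12% higher and 6.86% lower. Pidd1 was the only member that passed on both diets. The median log2 fold change over the 10 was 0.11 on HFHC and 0.15 on CDAHFD, beside -0.0061 and -0.0021 over all genes. A call here is a Benjamini-Hochberg adjusted p under 0.05 in limma-trend, fitted over all genes of a diet on log2(normalized count + 0.5). Fold changes are on that scale, the Mdm2 ASO over the control ASO.

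**Figure D1:**
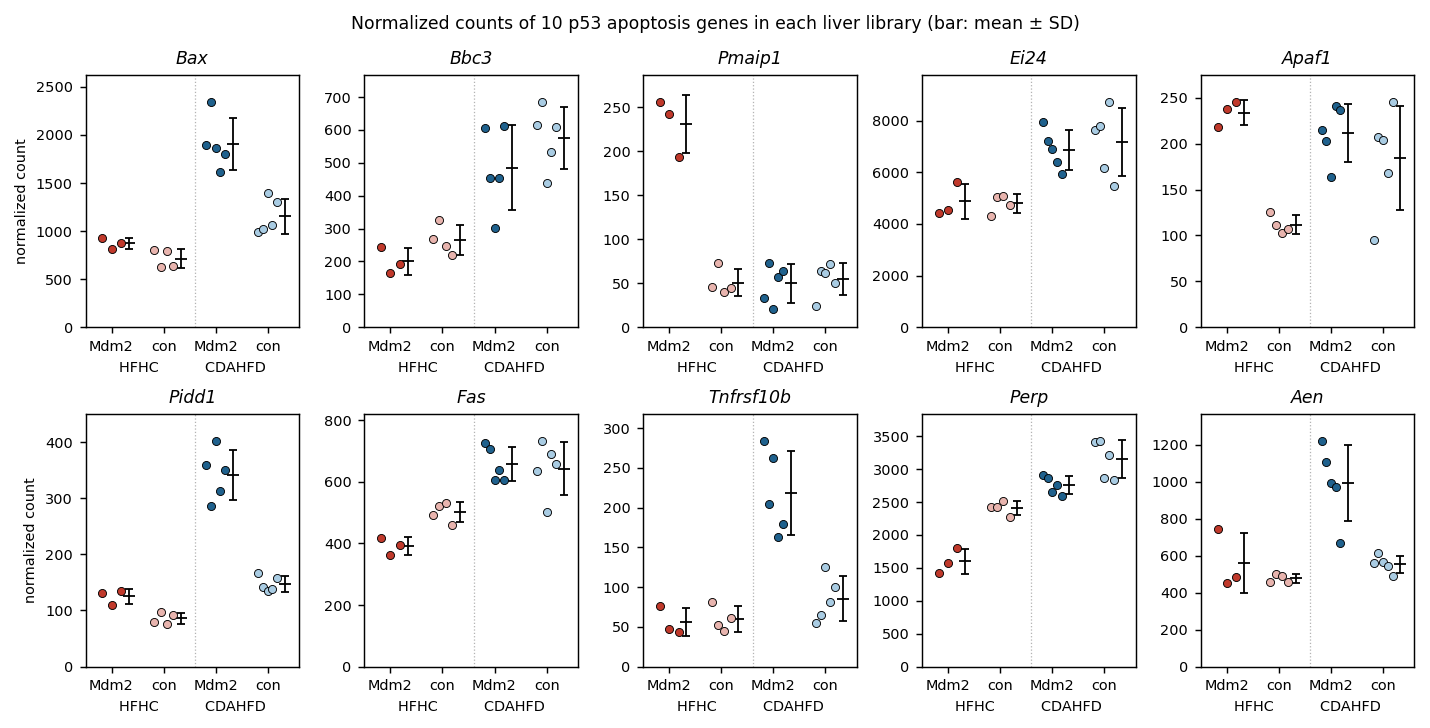
Normalized counts (y axis, from 0) of the 10 genes in each liver library, with the Mdm2 ASO left of the control ASO for HFHC (3 and 4 libraries) and CDAHFD (5 each); points are libraries and bars are the mean ± SD. The groups do not overlap for Bax, Pmaip1, Perp, Fas, Pidd1 and Apaf1 on HFHC and for Bax, Tnfrsf10b, Pidd1 and Aen on CDAHFD. The share of all genes whose groups do not overlap was not counted, so such separation cannot be called particular to these genes.

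Bax encodes the effector that opens the outer mitochondrial membrane. On CDAHFD it stood at 1899, 2347, 1866, 1610.1 and 1798 normalized counts in the Mdm2 ASO libraries, against 996, 1020.1, 1396, 1059 and 1301 in the control ASO libraries. Every Mdm2 ASO library was above every control ASO library, with a log2 fold change of 0.72 (SE 0.12, limma adjusted p = 0.00179). On HFHC the Mdm2 ASO libraries held 924, 811 and 880.0 and the control ASO libraries 804, 623, 788 and 642. These groups did not overlap either, but the highest control and the lowest treated library were close, and the log2 fold change of 0.29 (SE 0.11, 95% interval 0.05 to 0.54) missed the threshold at a limma adjusted p of 0.0702. That call turned with 1 library: without control ASO replicate 1 it became 0.0425, and scaling by library size gave 0.0384. Exons of Gm45808 on the same strand share 192 of the 1576 exonic bases of Bax in the GENCODE M21 annotation, so reads there may not all have been counted for Bax.

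Bbc3 encodes PUMA, a BH3-only protein that binds all the anti-apoptotic BCL2 proteins and is a classical p53 target. It did not pass the test on either diet. HFHC libraries held 244, 166 and 191 normalized counts with the Mdm2 ASO, against 267, 327, 246 and 219.9 with the control ASO. The treated libraries lay in and below the control range, with a log2 fold change of -0.41 (SE 0.17, 95% interval -0.78 to -0.03, limma adjusted p = 0.0948). It passed as lower without Mdm2 ASO library 6-7 (adjusted p = 0.0320) and after quantile normalization (0.0298). On CDAHFD the values were 605, 454, 303, 455 and 612 with the Mdm2 ASO and 614, 686, 438, 533 and 610.4 with the control ASO. The groups overlapped widely, with a log2 fold change of -0.27 (SE 0.18, 95% interval -0.65 to 0.11, limma adjusted p = 0.338).

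Pmaip1 encodes NOXA, the BH3-only protein that neutralizes MCL1, and it showed the widest gap between groups of the 10 genes on HFHC. It stood at 257, 242 and 194 normalized counts in the Mdm2 ASO libraries and at 45.4, 73.0, 39.9 and 45.0 in the control ASO libraries. The lowest treated library held more than the highest control library by a wide margin, and the log2 fold change was 2.20 (SE 0.22, limma adjusted p = 6.2e-05). On CDAHFD it stood at 33.5, 73.3, 20.4, 57.4 and 64.5 with the Mdm2 ASO, against 24.7, 63.8, 61.5, 71.7 and 50.5 with the control ASO. The groups covered the same range, with a log2 fold change of -0.18 (SE 0.37, 95% interval -0.97 to 0.61, limma adjusted p = 0.793), an interval that ends below the fitted value for HFHC.

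The libraries low in Pmaip1 on CDAHFD were also the libraries low in leukocyte markers. The summed leukocyte markers were 4407, 4412 and 5366 normalized counts in Mdm2 ASO replicates 8 and 6 and control ASO replicate 1, the lowest of the 10 libraries, and Pmaip1 there was 20.4, 33.5 and 24.7, the lowest 3 values. The other 7 libraries lay at 7223 or more for the markers and at 50.5 or more for Pmaip1. On HFHC both were high in the 3 Mdm2 ASO libraries, as would be so for any gene clearly raised by the Mdm2 ASO there. All 10 leukocyte markers were detected in every group, and the part of leukocyte RNA in the Pmaip1 result was not tested.

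Apaf1 encodes the scaffold of the apoptosome. HFHC libraries held 219, 237 and 246 normalized counts with the Mdm2 ASO, against 126, 111, 102 and 107 with the control ASO. The groups lay far apart and the log2 fold change was 1.07 (SE 0.12, limma adjusted p = 1.3e-04). CDAHFD libraries held 215, 203, 163, 241 and 236 with the Mdm2 ASO and 95.5, 207, 204, 168 and 246 with the control ASO. The treated libraries fell inside the control range, with a log2 fold change of 0.26 (SE 0.22, 95% interval -0.21 to 0.72, limma adjusted p = 0.481). Of the 3 CDAHFD libraries low in leukocyte markers, Mdm2 ASO replicate 8 and control ASO replicate 1 held the lowest Apaf1 value of their group, while Mdm2 ASO replicate 6 held 215, the middle of the treated values. Without control ASO replicate 1 the fold change fell to 0.04. On HFHC the leukocyte markers set all Mdm2 ASO libraries apart from the controls, so any gene raised there, Apaf1 included, goes with them. Markers of red blood cells, stellate cells and endothelial cells rose on HFHC as well. The part of any cell type in the Apaf1 result was not tested.

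**Figure D2:**
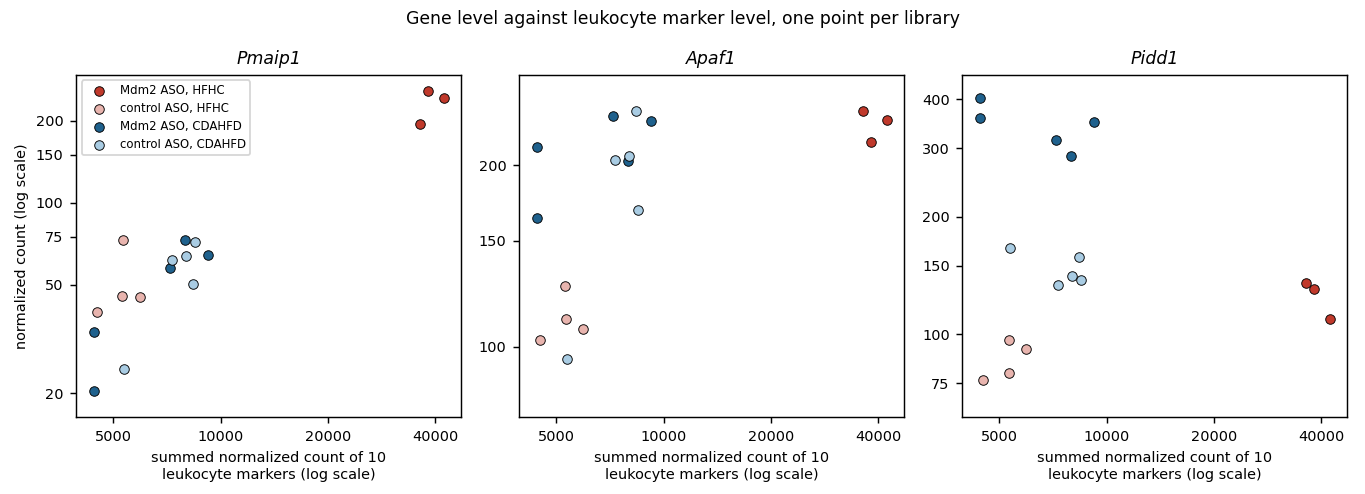
Normalized count of Pmaip1, Apaf1 and Pidd1 (y axes, log scale) against the summed normalized count of 10 leukocyte markers (x axis, log scale), one point per library in 4 groups. The 3 Mdm2 ASO libraries on HFHC lie at 36214 or more on the x axis and are the highest for Pmaip1; for Pidd1 the 5 Mdm2 ASO libraries on CDAHFD are highest, at 4407 to 9228. The diets were normalized separately, so positions are to be compared within a diet.

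Pidd1 encodes the death domain scaffold of the PIDDosome and was the member raised on both diets. On CDAHFD it stood at 359, 286, 402, 314 and 351 normalized counts with the Mdm2 ASO, against 166, 141, 134, 138 and 158 with the control ASO. No treated library came near the control range, and the log2 fold change was 1.21 (SE 0.12, limma adjusted p = 1.1e-04). Its HFHC values were 131, 109.7 and 135 with the Mdm2 ASO and 79.5, 96.5, 76.6 and 91.9 with the control ASO. The groups did not overlap, with a smaller log2 fold change of 0.54 (SE 0.15, limma adjusted p = 0.0224). The HFHC call was lost after quantile normalization (adjusted p = 0.184) and without control ASO replicate 4 (0.0578), Mdm2 ASO library 6-7 (0.0646) or Mdm2 ASO replicate 10 (0.0694). The CDAHFD libraries with the lowest leukocyte sums, Mdm2 ASO replicates 6 and 8, were the highest in Pidd1.

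Pidd1 was the gene whose pattern over the 17 libraries was matched against others, after each gene was centred on its control ASO mean within each diet. The search held 11781 genes with a mean log2 level of at least 5 on each diet, and members were left out of the ranking. Zmat1, Grik5 and Spout1 were closest, with root mean square differences of 0.22, 0.23 and 0.25 on the log2 scale. Their log2 fold changes were 0.60, 0.31 and 0.54 on HFHC and 0.99, 0.98 and 1.34 on CDAHFD.

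Fas encodes the receptor for FAS ligand, which hepatocytes carry and through which they are readily killed. On HFHC it stood at 419, 361 and 395 normalized counts with the Mdm2 ASO, against 493, 523, 532 and 461 with the control ASO. Every treated library was below every control library, with a log2 fold change of -0.36 (SE 0.09, limma adjusted p = 0.0135). The call was lost with scaling by library size and without Mdm2 ASO replicate 9 (adjusted p = 0.0665 and 0.0662). On CDAHFD the values were 726, 709, 608, 639 and 607 with the Mdm2 ASO and 635, 733, 503, 689.6 and 657 with the control ASO. The treated libraries lay inside the control range, with a log2 fold change of 0.04 (SE 0.11, 95% interval -0.19 to 0.27, limma adjusted p = 0.850).

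Tnfrsf10b encodes the mouse death receptor for TRAIL, and it passed on CDAHFD alone. Its values there were 284, 204, 262, 163 and 179 normalized counts with the Mdm2 ASO, against 54.7, 64.7, 126, 81.4 and 100.02 with the control ASO. The groups did not overlap, and the log2 fold change of 1.38 (SE 0.23, limma adjusted p = 0.00203) was the highest of the 10 genes on this diet. Its HFHC values were 75.9, 47.3 and 43.4 with the Mdm2 ASO and 81.5, 52.8, 44.2 and 61.0 with the control ASO. The ranges were nearly the same, with a log2 fold change of -0.12 (SE 0.27, 95% interval -0.72 to 0.49, limma adjusted p = 0.781).

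Perp encodes a membrane protein of desmosomes that is also known as a p53 effector in apoptosis, and it was lower with the Mdm2 ASO on HFHC. Its values there were 1426, 1577 and 1798 normalized counts with the Mdm2 ASO, against 2417, 2430.4, 2516 and 2269 with the control ASO. Every treated library lay below every control library, with a log2 fold change of -0.59 (SE 0.09, limma adjusted p = 8.9e-04). CDAHFD libraries held 2919, 2872, 2652, 2759.7 and 2588 with the Mdm2 ASO and 3409, 3429, 2861, 3214 and 2841 with the control ASO. Of the 5 treated libraries, 3 were below the lowest control library, and the log2 fold change of -0.19 (SE 0.08, 95% interval -0.36 to -0.02) did not pass (limma adjusted p = 0.133).

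Of 10 genes for other desmosome proteins, 8 were tested, and 4 of the 8 were lower on each diet. Of all genes, 13.8% were lower on HFHC and 6.86% on CDAHFD. The list was chosen with earlier results known, and the counts carry no test. Dsc3 was at 0 in every library. The 4 on HFHC were Dsp (-0.75), which encodes desmoplakin, Pkp2 (-0.66), Dsc2 (-0.58) and Pkp4 (-0.55), with limma adjusted p from 2.6e-04 to 0.00569. On CDAHFD the same 4 were lower, Pkp2 and Dsp by 0.44 each, Dsc2 by 0.40 and Pkp4 by 0.28 on the log2 scale, with limma adjusted p from 0.00909 to 0.0496. The Pkp4 call on CDAHFD was lost under 13 of 19 alternatives and the Dsc2 call under 9, which left 2 of the 4 in limma without a trend. The other 4 did not pass on either diet, with log2 fold changes from -0.32 to 0.04 on HFHC and from -0.12 to 0.50 on CDAHFD. None of the 8 was higher in limma-trend on either diet, and 0 of the 8 passed the test of the difference between diets in limma-trend, edgeR or DESeq2 (1 at an unadjusted p under 0.05). Cholangiocytes and hepatocytes are both joined by desmosomes. The summed level of 10 cholangiocyte markers ranged from 2362 to 3145 normalized counts with the Mdm2 ASO and from 4162 to 12136 with the control ASO on HFHC, where 6 of the 10 were lower and none was at 0. On CDAHFD the sums were 7174 to 12226 with the Mdm2 ASO and 4182 to 11966 with the control ASO, with 0 of 10 past the threshold. The part of cholangiocyte RNA in the HFHC values was not tested.

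Aen encodes a p53-induced nuclease that acts on DNA and RNA in dying cells. On CDAHFD it stood at 1220.0, 1105, 993, 969.7 and 669.6 normalized counts with the Mdm2 ASO, against 559, 616, 563, 545 and 488 with the control ASO. All treated libraries were above all control libraries, with a log2 fold change of 0.81 (SE 0.14, limma adjusted p = 0.00204). The lowest treated value, in Mdm2 ASO replicate 10, came from the library that was also lowest of the treated ones in Cdkn1a, at 3053. HFHC libraries held 746, 450.2 and 483 with the Mdm2 ASO and 457, 502, 488 and 458 with the control ASO. Only library 6-7 lay above the controls, and the log2 fold change of 0.20 (SE 0.16, 95% interval -0.16 to 0.55, limma adjusted p = 0.380) became -0.03 without it.

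Ei24 encodes a membrane protein of the endoplasmic reticulum that p53 induces in cultured cells. Its HFHC values were 4422, 4547 and 5645 normalized counts with the Mdm2 ASO and 4301, 5063, 5092 and 4737 with the control ASO. On CDAHFD they were 7943, 7229.6, 6908, 6383 and 5940.1 with the Mdm2 ASO, against 7645, 7794, 6164, 8740.2 and 5487 with the control ASO. The groups overlapped on both diets. The log2 fold change was 0.02 on HFHC (SE 0.11, 95% interval -0.22 to 0.26, limma adjusted p = 0.926) and -0.05 on CDAHFD (SE 0.12, 95% interval -0.31 to 0.22, limma adjusted p = 0.848). Exons of the antisense gene Gm26787 overlap 324 of its 4868 exonic bases in GENCODE M21, and the sources used here do not give the strand setting of the counting.

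**Figure D3:**
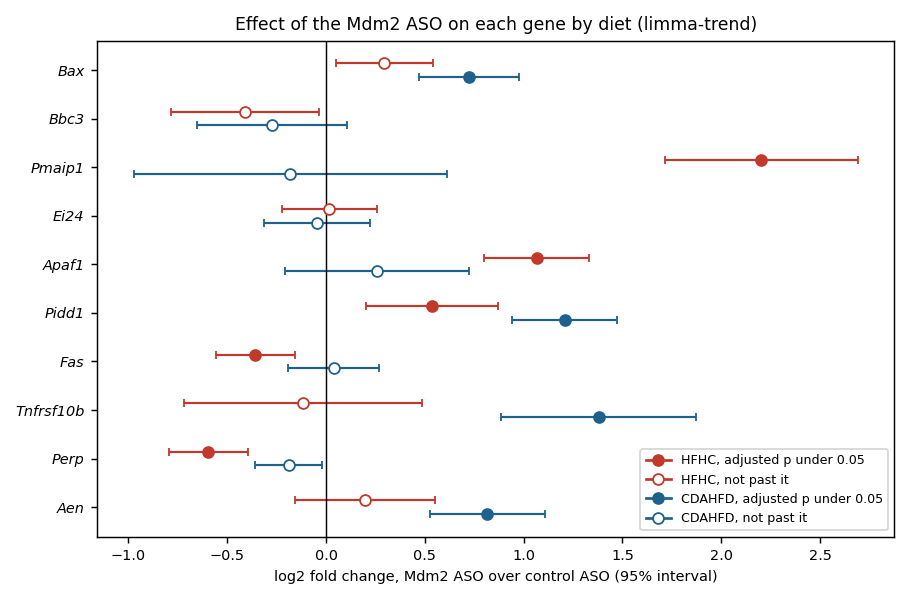
Log2 fold change of the Mdm2 ASO over the control ASO (x axis) with its 95% interval for the 10 genes (y axis), HFHC above CDAHFD in each pair; filled points passed an adjusted p of 0.05 in limma-trend. Pmaip1 (2.20) and Apaf1 (1.07) were highest on HFHC, and Tnfrsf10b (1.38) and Pidd1 (1.21) on CDAHFD.

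The diets were then compared directly, as the effect on CDAHFD minus the effect on HFHC. Of the 10 genes, 4 differed, against 23.5% of the 16333 genes tested on both diets (9.83% with a higher and 13.6% with a lower effect on CDAHFD). Pmaip1 had the lower effect on CDAHFD (-2.38, SE 0.51, limma adjusted p = 0.00239). Tnfrsf10b had a higher one (1.50, SE 0.38, limma adjusted p = 0.00713), as had Pidd1 (0.67, SE 0.19, limma adjusted p = 0.0135). Perp was lower on HFHC and its effect there was the more negative (difference 0.41, SE 0.12, limma adjusted p = 0.0173). The Perp difference was lost with scaling by library size (adjusted p = 0.0552) and without Mdm2 ASO library 6-7 on HFHC (0.0655). That of Pidd1 was lost without Mdm2 ASO replicate 9 on HFHC (0.0525). Both were also lost with a block on replicate number (limma adjusted p = 0.267 for Perp and 0.102 for Pidd1). That fit rested on the 6 pairs of libraries that share a number across diets. Only the pairs of replicates 9 and 10 had the Mdm2 ASO, and libraries without a partner added nothing to the contrast.

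Differences for the other members stayed short of the threshold in limma-trend. Aen had 0.62 (95% interval 0.15 to 1.09, limma adjusted p = 0.0532), Apaf1 -0.81 (-1.43 to -0.19, 0.0561), Fas 0.40 (0.09 to 0.71, 0.0610) and Bax 0.43 (0.06 to 0.80, 0.0888). These calls depended on the setting: Aen passed under 5 of 27 alternatives, Apaf1 and Fas under 3 each and Bax under 1. DESeq2 called Aen, Apaf1 and Fas (adjusted p = 0.0396, 0.0196 and 0.0427) and edgeR called Apaf1 (0.0342). Apaf1 also passed without control ASO replicate 1 on CDAHFD, the library low in leukocyte markers (-1.03, adjusted p = 0.00128). Intervals were -0.45 to 0.71 for Bbc3 and -0.45 to 0.32 for Ei24.

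Over 5 lists with 45 other genes of these routes, 21 passed on HFHC (46.7%, beside 30.6% of all genes) and 2 on CDAHFD (4.44%, beside 13%). By the test of the difference 18 of the 45 passed (40%, beside 23.5% of all genes), 3 with a higher and 15 with a lower effect on CDAHFD. The lists were chosen with earlier results known, and these shares carry no test. For the counts by direction, 16.8% of all genes were higher and 13.8% lower on HFHC, and 6.12% higher and 6.86% lower on CDAHFD. Of 7 anti-apoptotic BCL2 family genes, 4 were higher on HFHC, 0 lower and 3 not past the threshold. They were Bcl2a1d (log2 fold change 3.38), Bcl2a1a (3.97) and Bcl2a1b (2.13), with limma adjusted p from 2.3e-06 to 2.0e-05, and Bcl2 (1.47, limma adjusted p = 5.9e-04). The Bcl2a1 genes are near-identical copies expressed in blood cells, so the split of reads among them is uncertain, and leukocyte markers rose with them as given above (10 of 10, none at 0), a part that was not tested. On CDAHFD 0 of the 7 passed in limma-trend or edgeR and 1, Mcl1, was lower in DESeq2 and at an unadjusted p under 0.05 in limma-trend. The median was 1.47 on HFHC and -0.11 on CDAHFD, and the diet difference passed as lower on CDAHFD for 4 of the 7 and as higher for 0.

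Of 10 further pro-apoptotic BCL2 family genes, 3 were higher and 2 lower on HFHC. Bak1, a pore former like Bax, rose by 0.62, Bcl2l11, which encodes the BH3-only protein BIM, by 1.03, and the mitophagy receptor gene Bnip3l by 0.37 on the log2 scale. Bik fell by 1.22 and Bid, the link from death receptors to mitochondria, fell by 0.44. These limma adjusted p ran from 7.0e-04 to 0.0128, and the Bcl2l11 call was lost without Mdm2 ASO replicate 9 (0.0565). On CDAHFD 0 of the 10 passed in limma-trend, edgeR or DESeq2 and 0 had an unadjusted p under 0.05, and the medians were -0.01 on HFHC and -0.07 on CDAHFD. The diet difference passed for 3 of the 10, with the effect on CDAHFD higher in 1 and lower in 2.

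Among 12 genes of the apoptosome, the caspases and their inhibitors, 4 were higher and 2 lower on HFHC. The higher ones were Birc3 (0.90), Naip2 (1.26) and Birc5 (0.69), which belong to the inhibitor of apoptosis family, and Htra2 (0.40), a mitochondrial protease that counters such inhibitors. The lower ones were Cycs (-0.68), which encodes cytochrome c, and Casp6 (-0.25). Birc5 is also one of the 10 dividing cell markers, of which 7 were higher on HFHC, and the 10 leukocyte markers were higher there too; their part in these calls was not tested. The Birc5 call (limma adjusted p = 0.0481) was lost under 11 of 16 alternatives and the Casp6 call (0.0444) under 9. On CDAHFD 0 were higher and Naip2 was lower (-0.85, limma adjusted p = 0.0196), a call lost without control ASO replicate 2, control ASO replicate 4 or Mdm2 ASO replicate 8 (0.0615, 0.0530 and 0.0522). The medians were 0.17 on HFHC and -0.05 on CDAHFD, and the effect on CDAHFD was higher for 2 and lower for 3 of the 12 by the test of the difference.

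Of 12 death receptor genes outside the members, 4 were higher and 0 lower on HFHC: Tnfsf10, which encodes TRAIL (1.04), Tnf (1.84), Tnfrsf11b (1.01) and Ripk1 (0.41). Their limma adjusted p ran from 0.00169 to 0.0132, and that of Tnf was 0.0587 without Mdm2 ASO replicate 9. The 4 of 12 lie near the 30.6% of all genes that passed on HFHC. The leukocyte markers, higher in 10 of 10 on HFHC, moved with these genes as well, as did markers of other cell types. Their part was not tested. On CDAHFD 0 were higher and Tnfrsf23, a decoy receptor for TRAIL in mice, was lower (-1.22, limma adjusted p = 0.0237), a call lost under 5 of 19 alternatives (adjusted p up to 0.0628). The medians were 0.19 on HFHC and -0.17 on CDAHFD, and the effect on CDAHFD was lower for 4 of the 12 and higher for 0 by the test of the difference. Of the TRAIL pair, the ligand gene Tnfsf10 was called on HFHC and the receptor gene Tnfrsf10b on CDAHFD, and both passed the test of the difference, Tnfsf10 with -1.28 (limma adjusted p = 0.00994) and Tnfrsf10b with 1.50.

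The list drawn as PIDDosome partners holds 4 genes, of which Nfkbia is an NF-kappaB gene and not a partner. Of the 4, 1 was higher and 1 lower on HFHC. On CDAHFD 0 passed in limma-trend, edgeR or DESeq2 (2 lower at an unadjusted p under 0.05). Nfkbia, the inhibitor of NF-kappaB, rose by 0.91, and Ikbkg, the NEMO subunit that PIDD1 also binds, fell by 0.43 on the log2 scale (limma adjusted p = 2.4e-04 and 0.00152). The adaptor gene Cradd had -0.09 on HFHC and -0.13 on CDAHFD, and Casp2, the caspase of the complex, 0.31 and -0.29 (limma adjusted p from 0.141 to 0.696), so Pidd1 was called on both diets and neither of these partners on either. The effect on CDAHFD was lower for 2 of the 4, Casp2 and Nfkbia, by the test of the difference.

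Of 20 other p53 targets, 10 were higher and 1 lower on each diet, with medians of 0.49 on HFHC and 0.54 on CDAHFD. Of all genes, 16.8% were higher and 13.8% lower on HFHC, and 6.12% higher and 6.86% lower on CDAHFD. The list was chosen with earlier results known, and the counts carry no test. The 10 higher genes were not all the same on HFHC and CDAHFD. Phlda3, a repressor of AKT signalling, had a log2 fold change of 1.70 on HFHC and 1.67 on CDAHFD. Zmat3, an RNA-binding protein gene, had 0.77 on HFHC and 1.01 on CDAHFD. Ccng1, which encodes cyclin G1, had 0.62 and 0.83, and Eda2r, a gene of the TNF receptor family, had 0.84 and 1.50. Steap3, the lower one on both diets, had -0.87 on HFHC and -0.69 on CDAHFD. All of these values passed, with limma adjusted p from 3.1e-05 to 0.0129. By the test of the difference, the effect was higher on CDAHFD for 2 of the 20 and lower for 0 in limma-trend. It was lower for 1 in edgeR and for 1 in DESeq2. At an unadjusted p under 0.05 in limma-trend, it was higher for 3 and lower for 3. The count of higher genes ranged from 6 to 11 on HFHC and from 7 to 11 on CDAHFD over the alternatives, lowest in limma without a trend on both.

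**Figure D4:**
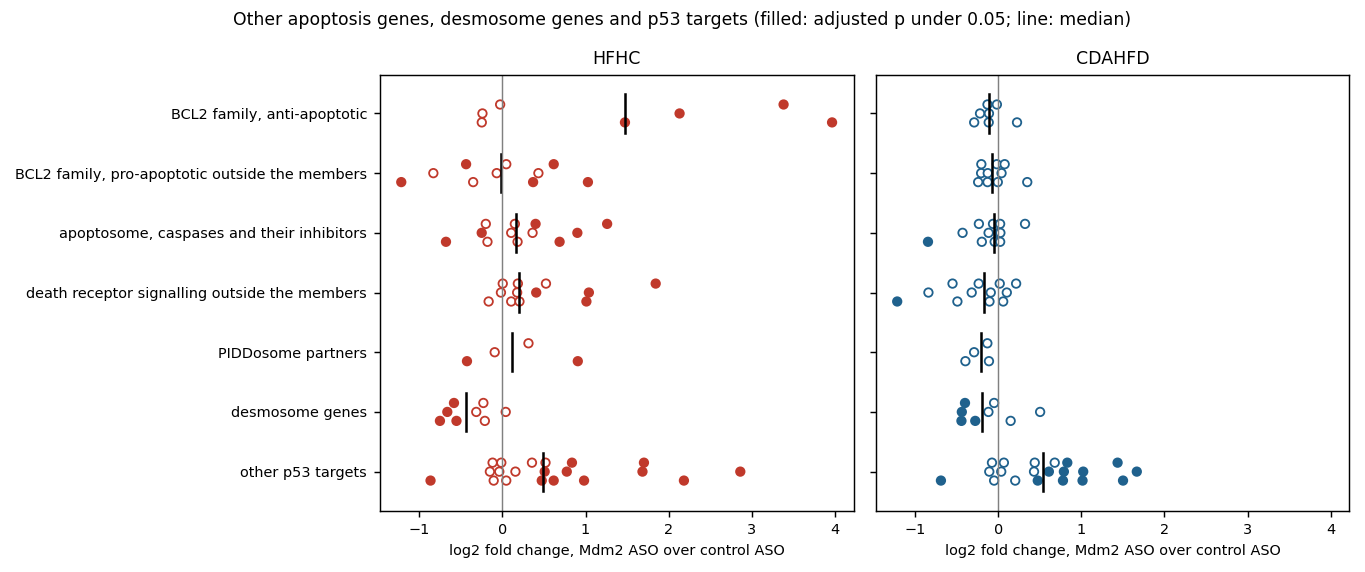
Log2 fold change of the Mdm2 ASO over the control ASO (x axis) for each gene of 7 lists (y axis) on HFHC (left) and CDAHFD (right); points are genes, filled where the adjusted p was under 0.05, and black lines are list medians. The apoptosis lists hold filled points on HFHC and at most 1 each on CDAHFD. The other p53 targets hold 10 higher ones on each diet, not all the same genes, beside 16.8% of all genes on HFHC and 6.12% on CDAHFD.

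Transcript levels of the 10 genes differed widely when taken per kb of exonic length. In control ASO livers on HFHC, Perp was highest at 1234 ± 52.7 normalized counts per kb, then Ei24 at 986 ± 75.7, Bax at 453 ± 60.4, Fas at 244 ± 15.6, Bbc3 at 125 ± 21.4 and Aen at 82.1 ± 3.83 (SD, n = 4). Pidd1 (19.0 ± 2.12), Pmaip1 (18.6 ± 5.48), Apaf1 (12.4 ± 1.13) and Tnfrsf10b (11.0 ± 2.93) followed. Pmaip1 overlapped Pidd1, Apaf1 and Tnfrsf10b within 1 SD, and Apaf1 and Tnfrsf10b overlapped too. With the Mdm2 ASO on HFHC, Pmaip1 stood at 84.5 ± 12.0 per kb, level with Bbc3 (94.2 ± 18.7) and Aen (96.5 ± 27.9), and Tnfrsf10b was lowest at 10.2 ± 3.26 (SD, n = 3).

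On CDAHFD the order at the top was Ei24 (1413 ± 159), Perp (1413 ± 72.0) and Bax (1208 ± 172) per kb with the Mdm2 ASO (SD, n = 5), which overlapped within 1 SD. With the control ASO, Perp (1614 ± 147) and Ei24 (1472 ± 270) overlapped and Bax stood apart at 732 ± 115 (SD, n = 5). At the bottom were Pidd1 (75.6 ± 9.86), Tnfrsf10b (40.0 ± 9.64), Apaf1 (23.5 ± 3.46) and Pmaip1 (18.2 ± 8.09) with the Mdm2 ASO, the last 2 not apart. In control ASO livers they were Pidd1 (32.6 ± 3.08), Apaf1 (20.4 ± 6.27), Pmaip1 (19.9 ± 6.69) and Tnfrsf10b (15.6 ± 5.21), the last 3 not apart.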

How the data were processed

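Liver RNA was extracted with a column kit and made into strand-specific mRNA libraries, per the labels' protocols. The submitters' processing notes name STAR 2.7.10b, featureCounts of Subread 2.0.3 and the build GRCm39. The deposited values are a signal, TMM-normalized counts per gene, in 1 table per diet with 33235 genes, which the authors normalized separately. Dividing by 1 constant per library gave whole reads back (99.997% of values or more, within 0.001). The identical replicates 6 and 7 were merged, giving 17 libraries from 18 samples. No label says that samples are separate animals, so p-values measure the spread between libraries.

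A gene had to reach 1 in a number of libraries equal to the smaller group's size. Tests were run with limma-trend (limma 3.58.1, R 4.3.3) on log2(value + 0.5), per diet, with Benjamini-Hochberg adjustment over all genes. The diet difference was an interaction contrast. Intervals are 95% intervals of the model. Alternatives were other pseudocounts, filters and scalings, limma without a trend, edgeR 4.0.16 and DESeq2 1.42.0 on recovered reads, and leaving out each library. For the diet difference, a block on replicate number was run too. The models were tested on simulated data. Members and gene lists were chosen with earlier results of these data known. Of each list, up to 3 called genes per direction and diet were named. Bcl2, Birc5, Tnf, Pkp4, Mcl1, Cradd, Casp2, Ccng1 on CDAHFD, Eda2r on HFHC and the diet difference of Tnfsf10 were added after their values were seen. Exonic lengths and overlaps came from GENCODE M21 (GRCm38), matched by identifier, and 1 hepatocyte marker of 12 was not matched.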

Additional observations from a re-analysis of the deposited data

Results flagged for a closer look

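Effects of the Mdm2 ASO differed between diets in 4 of the 10 genes by the interaction test of limma-trend, beside 23.5% of all genes. The effect on CDAHFD minus that on HFHC was -2.38 for Pmaip1, 1.50 for Tnfrsf10b, 0.67 for Pidd1 and 0.41 for Perp on the log2 scale, with adjusted p of 0.00239, 0.00713, 0.0135 and 0.0173. The calls of Perp and Pidd1 were lost under 3 and 2 of 27 alternatives. For Tnfsf10, the gene for the ligand of the receptor that Tnfrsf10b encodes, it was -1.28 (limma adjusted p = 0.00994). Tnfsf10 was picked after its value was seen, and it is 1 of 18 among the 45 listed apoptosis genes that passed this test.

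In 5 of 97 groups of 4 or 5 libraries, 1 library stood apart from the rest by Dixon's criterion on log2 values, which chance alone gives in about 1 in 20 groups. Control ASO replicate 2 on HFHC was low in Bcl2l11, at 208 normalized counts. Control ASO replicate 1 on HFHC was low in Mdm2, at 907. On CDAHFD, control ASO replicate 3 was low in Dsc2, at 629, and high in Eda2r, at 103, and control ASO replicate 1 was low in Zmat3, at 229. None of the 10 members had such a library in a group of 4 or 5.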

How the results depend on the processing

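On CDAHFD the same 4 members passed in every setting run. On HFHC the count was 5 in each setting that kept all libraries, though not always the same members, and 4 to 6 when 1 library was left out. For the difference between diets it was 4, became 7 with DESeq2, 5 with edgeR and with a filter on a mean value of 10, 6 after quantile normalization and 3 with scaling by library size, and was 3 to 5 when 1 library was left out. Of the recomputed values of called members, 6 of 80 on HFHC, 0 of 76 on CDAHFD and 5 of 108 for the difference lost the call. Of those of members not called, 4 of 80, 0 of 114 and 12 of 162 gained one.

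Signs turned only for values that had not passed. With 1 library left out, log2 fold changes ranged from -0.029 to 0.33 for Aen, -0.094 to 0.082 for Ei24, -0.36 to 0.044 for Tnfrsf10b, -0.22 to 0.12 for Cradd and -0.25 to 0.012 for Trp53 on HFHC. They ranged from -0.14 to 0.031 for Ei24, -0.047 to 0.089 for Fas and -0.44 to 0.10 for Pmaip1 on CDAHFD, and from -0.15 to 0.049 for Ei24 in the difference. Scaling by library size gave 0.013 for Cradd on HFHC. The cause was not tested.

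Mdm2 ASO and control ASO samples share no replicate numbers within a diet. Numbers are shared across diets. Same-numbered libraries correlated at -0.07 to 0.11 over 6 pairs, 3 of which correlated best with their own number. So few pairs cannot settle whether these libraries share more than a number. With a replicate block, 2 members passed for the difference (Pmaip1 and Tnfrsf10b, with adjusted p of 0.267 for Perp and 0.102 for Pidd1) and 2167 genes in place of 3832.

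Scaling mattered for all genes on HFHC: 2932 were higher and 2399 lower, against 2482 and 3725 after quantile normalization (median -0.11) and 3396 and 1451 after scaling by library size. For the difference, 1606 were higher and 2226 lower, against 2466 and 1957 (median 0.11) and 962 and 2667 (median -0.11). On CDAHFD 2181 genes passed, against 1424 without a trend and 1232, 1459 and 1426 without control ASO replicate 2, control ASO replicate 4 and Mdm2 ASO replicate 8. The number of libraries, 3 with the Mdm2 ASO on HFHC, limits precision there, where the 95% interval for Bax was 0.05 to 0.54.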
